A study of Jatropha curcas with 15 samples.

Results

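This account describes inflorescence buds of *Jatropha curcas*, an oil-seed shrub, 12 h after a spray of 6-benzyladenine (BA), a synthetic cytokinin, set against buds at 0 h. The 2 time points were chosen by their time label and hold 6 of the 15 arrays of the series, 3 biological replicates each. The 12-h buds came from 1-year-old plants grown in the field and sprayed with 1 mM BA with the wetting agent Tween-20. The 0-h buds came from plants of the same age and field. They were collected at the start of the time course and carry no treatment in their labels. The paper counts them, like the other buds, as collected after treatment with the 1 mM BA solution. Whether the 0-h buds were sprayed before collection is not stated. Buds sprayed without BA and collected at 12 h are not among the arrays. The 12-h buds were also collected at the clock time opposite to that of the 0-h buds, so BA, the spray itself and the time of day cannot be told apart in this comparison. The clock hour of sampling is not given in the sources used here.

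Cytokinins are plant hormones that promote cell division and hold open the meristems from which flowers arise, and in *Arabidopsis* they are sensed by histidine kinases that pass a phosphate to response regulators. Many plant genes also follow a daily rhythm: genes of light harvesting, pigment synthesis and water transport are among those known to cycle in leaves, and GIGANTEA (GI), a clock-associated gene, peaks late in the day in *Arabidopsis*. Floral organ-identity genes of the A, B, C and E classes, mostly MADS-box factors, specify sepals, petals, stamens and carpels in a forming flower.

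Cy3-labelled cRNA of each sample was hybridised to a 1-colour Agilent array with 41651 probes of 60 bases. Levels are log2 intensities minus the 75th percentile of the array, so that 0 stands for that percentile and a dim probe has a negative level, and levels of different probes are not compared. Between 34193 and 34793 probes were well above background on the 12-h arrays, against 32896 to 34679 on the 0-h arrays, and no spot was saturated. Levels correlated across probes with r between 0.988 and 0.991 within 12 h, between 0.993 and 0.994 within 0 h, and between 0.959 and 0.973 across the 2 time points. All 0-h arrays lay on a slide scanned 6 days before the slides of the 12-h arrays (replicates 1 and 2 on one slide, replicate 3 on another), so slide and scan day cannot be told apart from time point within the 6 arrays. Fits over the 15 arrays with a fixed term for slide, or for scan day, link them through 1 array alone, 3 h replicate 1. The tissue label was checked against 7 floral organ-identity genes (AP1, AP3, AG, STK, SEP1, SEP2 and SEP3). Each of these 7 markers was well above background on all 6 arrays. The markers do not cover the whole class on the study's flowering list. PI and TM6, also floral organ-identity probes there, were too dim at every time point to be tested. AP2, likewise outside the marker set, was bright enough to be tested. In bulk samples, fewer cells of a type and less RNA per cell cannot be told apart.

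Of the 34470 probes tested, 1207 were higher and 1908 were lower in the 12-h buds than in the 0-h buds. A probe was called where limma's moderated test gave an adjusted p of at most 0.05 and the change was at least 2-fold, which 9.04% of the tested probes met, 3.50% of them as higher and 5.54% as lower. Falls outnumbered rises at each size: 80 probes fell and 40 rose by at least 16-fold, 148 and 98 by 8- to 16-fold, and 371 and 207 by 4- to 8-fold. The median log2 fold change was 1.47 over the higher and -1.59 over the lower probes, and 0.02 over all tested probes. The 12-h arrays lay wholly above or below the 0-h arrays for 97.6% of the called probes, and for 44.9% of all tested probes. Higher calls were more frequent among dim probes, with 6.29% of the dimmest and 1.72% of the brightest of 4 equal classes of mean level, whereas lower calls made up 5.53% and 5.92% of these classes. Without scaling between arrays, 59.7% of the called probes were higher, in place of 38.7%, and with normexp background correction, which acts most on dim probes, 19.9% were higher; the median over all tested probes was then 0.26 and -0.20. A total of 156 probes were well above background on all 12-h arrays and on no 0-h array, and 125 of them were called higher, whereas the reverse held for 40 probes, all called lower.

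**Figure D1:**
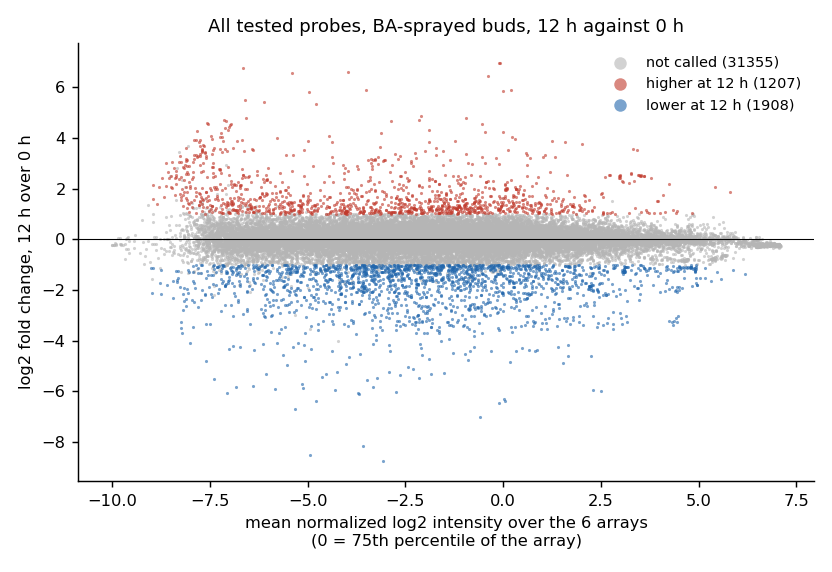
Log2 fold change of each tested probe (12 h over 0 h) against its mean normalized log2 intensity over the 6 arrays. The 1207 higher probes are red, the 1908 lower probes blue and the 31355 others grey; changes beyond 4 on the log2 scale occur in both directions.

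The deepest falls and highest rises were on probes of little annotation. CUST_9695 read -6.90, -7.08 and -8.36 in the 12-h buds, against 1.01, 1.63 and 1.33 in the 0-h buds, a log2 fold change of -8.77 ± 0.33 (SE; adjusted p = 2.39e-09). CUST_10716, described as a conserved hypothetical protein, read -8.63, -9.54 and -9.49 in the 12-h buds, against -1.04, -0.35 and -0.67 in the 0-h buds. No 12-h array showed it well above background, so each 12-h array was taken at the dimmest signal that was well above background there, or at the signal of CUST_10716 if higher, and the fall was at least 153-fold. CUST_13817 followed, at -8.17 ± 0.67, with 12-h arrays between -9.56 and -5.59 and only 2 of them well above background. Among the rises, CUST_25894 read 3.67, 3.05 and 3.51 in the 12-h buds, against -3.56, -3.55 and -3.57 in the 0-h buds, and CUST_23492 read 3.64, 3.07 and 3.45 in the 12-h buds, against -3.60, -3.60 and -3.51 in the 0-h buds. The 2 probes gave nearly the same level on each array, and their log2 fold changes were 6.97 ± 0.15 and 6.96 ± 0.18. The rise of CUST_20252, which no 0-h array showed well above background, was at least 21.2-fold. Such bounds hold only for the deposited background-subtracted signal. With normexp, log2 fold changes were -5.54 for CUST_10716 and 2.13 for CUST_20252, both smaller than their bounds, and CUST_20252 was then not called (adjusted p = 0.104). CUST_20252 was at 3.23 with a slide and 3.23 with a scan-day term, also below its bound.

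Probes that the study described by a protein name gave more to read. These described probes were selected for change in these same samples and are not independent evidence of change. Of them, 119 were lower and 78 higher, 20.4% in all. The largest fall among probes with an informative description was that of a silicon transporter (CUST_10756), a member of the wider aquaporin superfamily in rice. It read -6.94, -6.55 and -6.74 in the 12-h buds, against -0.74, -0.37 and -0.88 in the 0-h buds, a 67.7-fold fall. An N-acetyltransferase probe (CUST_14937) read -4.04, -5.04 and -4.43 in the 12-h buds, against 0.70, 0.95 and 0.79 in the 0-h buds. Both pairs of groups were far apart, with log2 fold changes of -6.08 ± 0.25 (SE; adjusted p = 4.84e-09) and -5.32 ± 0.21 (SE; adjusted p = 3.79e-09). The probes of these transcripts, and of the hypothetical protein that fell most, are shown 5′ to 3′ as the probe lists give them, since no gene symbol identifies the transcripts:
CUST_10756, silicon transporter: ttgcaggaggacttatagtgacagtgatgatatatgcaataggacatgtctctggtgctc
CUST_14937, N-acetyltransferase: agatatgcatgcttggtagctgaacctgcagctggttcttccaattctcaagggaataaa
CUST_10716, conserved hypothetical protein: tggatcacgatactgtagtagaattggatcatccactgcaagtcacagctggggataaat
Enzymes of primary metabolism were among the other large falls. NADP-dependent glyceraldehyde-3-phosphate dehydrogenase (CUST_11299), which makes reducing power, fell by 3.48 on the log2 scale. Myo-inositol-1-phosphate synthase (CUST_20088), the first step to inositol, fell by 3.42. S-adenosylmethionine decarboxylase (CUST_25486), an enzyme of polyamine synthesis, fell by 3.04, with 12-h arrays between -1.01 and -0.77 and 0-h arrays between 2.09 and 2.27. Of 2 protein kinases, Nek8 (CUST_17628) had a log2 fold change of -3.03 ± 0.12 and was well above background on 1 of the 12-h arrays, and a mitogen-activated protein kinase kinase kinase (CUST_4984) fell at least 6.58-fold. A probe described as a transcription factor (CUST_13823) fell at least 3.38-fold and one described as a protein binding protein (CUST_18144) by 3.21 on the log2 scale. Some probes were chosen for qRT-PCR measurement. Among them, a conserved hypothetical protein (CUST_650) read -2.80, -3.14 and -3.47 in the 12-h buds, against 3.13, 3.39 and 3.20 in the 0-h buds. Of the 11 tested probes on that list, which was drawn up from these data, 4 were lower and 3 higher. On it a cation efflux protein (CUST_11629) fell at least 33.5-fold and Myb domain protein 12 (CUST_13129), a regulator of flavonol synthesis in *Arabidopsis*, changed by -1.43 ± 0.21, a call lost with a fixed term for slide or for scan day. With normexp the kinase kinase kinase was at -2.25 and the cation efflux protein at -3.72, both called but below their bounds, and the transcription factor was not called at -2.19.

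**Figure D2:**
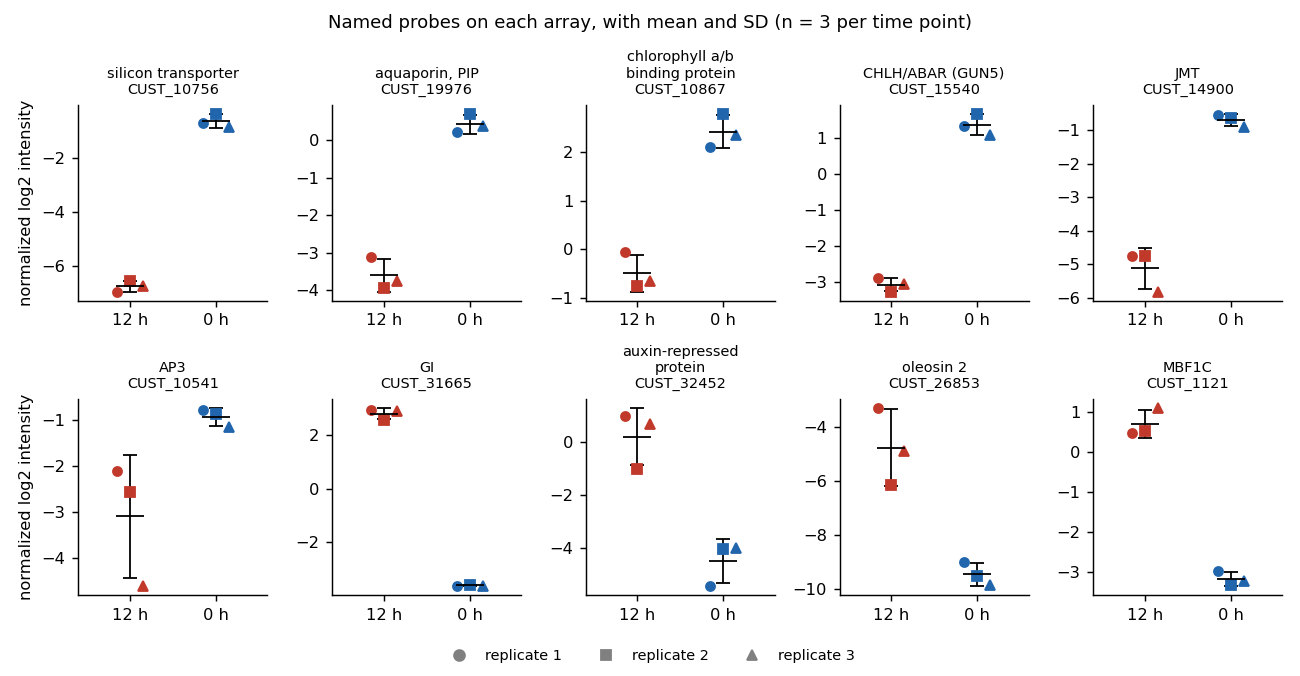
Normalized log2 intensity of 10 named probes on each array, 12 h left and 0 h right, with the mean (bar) and SD (whiskers, n = 3 per time point); each panel has its own vertical scale. The 2 time points do not overlap in any panel, and AP3 and oleosin 2 show the widest spread among the 12-h arrays.

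Water channels fell almost as a group. Aquaporins carry water across the plasma membrane (the PIP subfamily) and the vacuolar membrane (tonoplast intrinsic proteins, TIPs). Of 16 described water channel probes, 15 were lower in the 12-h buds and none was higher, against 5.54% of all tested probes, and the median log2 fold change was -1.26 against 0.02 over all probes. All 9 PIP probes fell, by 1.03 to 4.02 on the log2 scale. The lowest of them, CUST_19976, read -3.11, -3.93 and -3.76 in the 12-h buds, against 0.21, 0.70 and 0.36 in the 0-h buds, a 16.3-fold fall with a log2 fold change of -4.02 ± 0.23 (SE; adjusted p = 7.10e-08). Aquaporin PIP1.3 (CUST_20019) read -0.61, -1.10 and -0.83 in the 12-h buds, against 2.15, 2.64 and 2.36 in the 0-h buds. Aquaporin PIP2.2 (CUST_20176) read -1.78, -1.14 and -1.68 in the 12-h buds, against 1.05, 1.18 and 1.31 in the 0-h buds. For each of these 3 PIPs the highest 12-h array lay more than 2 log2 units below the lowest 0-h array. Their probes share no run of 20 bases with each other or with another PIP probe, so they read separate transcripts or separate parts of one:
CUST_19976, PIP subfamily: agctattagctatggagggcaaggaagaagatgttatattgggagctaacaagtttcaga
CUST_20019, PIP1.3: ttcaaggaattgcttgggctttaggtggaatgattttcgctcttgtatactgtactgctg
CUST_20176, PIP2.2: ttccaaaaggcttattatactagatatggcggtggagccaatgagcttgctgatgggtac
The 7 TIP probes held 5 separate sequences. CUST_203 and CUST_9745 have the same 60 bases and gave -1.30 ± 0.10 and -1.26 ± 0.11. The called TIP probes, 6 in number, changed by -1.30 to -1.03, and CUST_7640 was not called at -0.31 ± 0.24. These changes lay close to the 2-fold threshold: of the 16 water channel probes, 12 were called with quantile normalization or with the deposited log2 values, and 11 without scaling.

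Most described photosynthesis probes were lower as well. Of 25 such probes, 16 were lower and none was higher, against 5.54% lower among all tested probes and in a list selected for change, with a median log2 fold change of -1.35. Among 9 probes for chlorophyll a/b binding and light-harvesting proteins, which hold the antenna pigments of the photosystems, 8 were called. CUST_10867 read -0.06, -0.77 and -0.66 in the 12-h buds, against 2.12, 2.80 and 2.36 in the 0-h buds, and CUST_12680 read 0.02, -0.22 and -0.11 in the 12-h buds, against 2.38, 2.83 and 2.70 in the 0-h buds. These were falls by 7.59-fold and 6.68-fold. A further one, CUST_7578, changed by -2.08 ± 0.21. CUST_969 and CUST_8078 have the same 60 bases and overlap with CUST_9100, and the 3 probes gave nearly the same log2 fold change, at -1.87, -1.86 and -1.87. Capitals mark the 28 bases that 2 of these overlapping probes share:
CUST_969: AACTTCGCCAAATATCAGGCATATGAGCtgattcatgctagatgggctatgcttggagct
CUST_9100: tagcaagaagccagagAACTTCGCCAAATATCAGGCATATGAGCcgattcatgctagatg
CUST_10867, chlorophyll a/b binding protein, no shared run: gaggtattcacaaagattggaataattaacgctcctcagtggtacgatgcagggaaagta
CUST_12680, chlorophyll a/b binding protein, no shared run: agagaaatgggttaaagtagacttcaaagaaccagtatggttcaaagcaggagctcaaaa
Falls reached the reaction centres and carbon fixation as well. Photosystem II reaction centre W changed by -1.35 ± 0.19, photosystem II 22 kDa protein, which protects against excess light, by -1.66 ± 0.25, ferredoxin-2 by -1.62 ± 0.15, and both phosphoribulose kinase probes, an enzyme of the Calvin cycle, by -1.88 ± 0.21 and -1.75 ± 0.20. Photosystem I subunit XI (CUST_31967) changed by -1.24 ± 0.24, with 1 of its 0-h arrays left out as a marked spot. A described Rubisco small chain probe (CUST_25049) was not called at -0.33 ± 0.15, and neither were cytochrome b6 (-0.31 ± 0.24) and the alpha subunit of chloroplast ATP synthase (-0.22 ± 0.13). The 12 green tissue markers were picked by the words chlorophyll a/b binding, photosystem or ribulose bisphosphate carboxylase. Probes with such descriptions are among those reported above, so the markers are not a separate reading. Of them, 10 were lower, and none was absent at either time. Their summed level lay between 28.7 and 44.5 in the 12-h buds and between 108 and 135 in the 0-h buds, in units of the array's 75th percentile. Their part in the result was not tested. The light-harvesting complex I probe of the qRT-PCR list (CUST_11579) changed by -1.72 ± 0.32, but its adjusted p was 0.061 with a slide term in the fit.

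**Figure D3:**
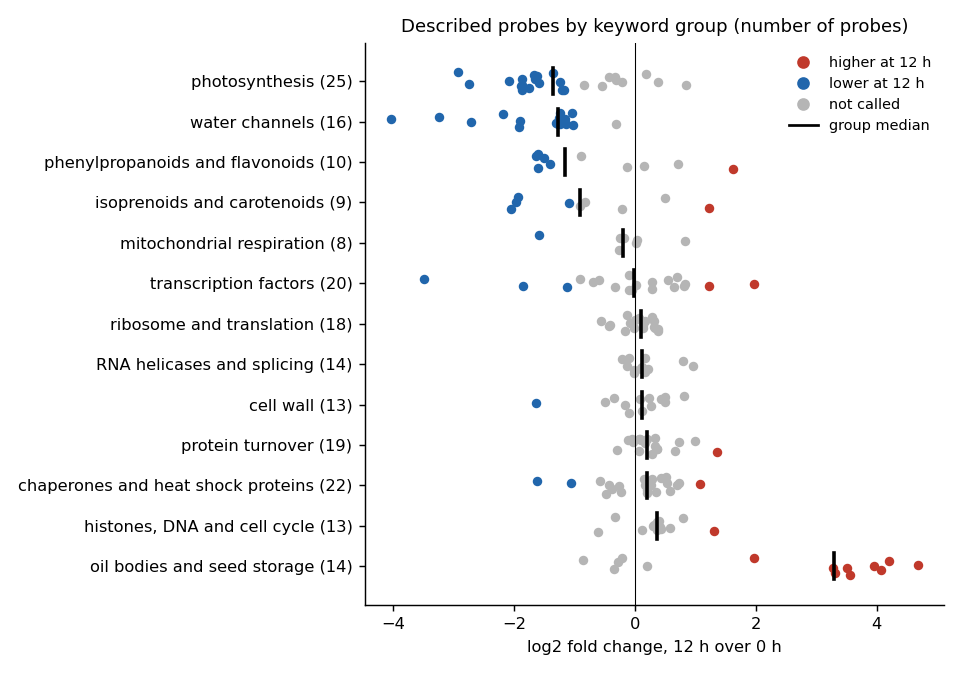
Log2 fold change (12 h over 0 h) of described probes in 13 groups formed by keywords in their descriptions, with the number of probes in parentheses; red points are higher, blue lower and grey not called, and the bar is the group median. The medians of photosynthesis (-1.35) and water channels (-1.26) lie lowest and that of oil bodies and seed storage highest (3.30, or 1.77 with probes at the background set to their bound).

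Plastid isoprenoid and phenylpropanoid probes were split within families, and their counts stand against 9.04% called among all tested probes and 20.4% among the described ones. Of 9 isoprenoid and carotenoid probes, 4 were lower and 1 higher. 1-Deoxyxylulose-5-phosphate synthase opens the plastid route to carotenoids, and 2 of its described probes fell (CUST_8307, -1.96 ± 0.17; CUST_15654, -1.94 ± 0.18). The remaining described probe rose: CUST_20165 read -2.99, -3.36 and -2.90 in the 12-h buds, against -4.32, -4.52 and -4.11 in the 0-h buds. Zeaxanthin epoxidase (CUST_7113), which makes violaxanthin, changed by -1.08 ± 0.17. The remaining lower probe, CUST_20053 (-2.05), is the NCED3 probe given below under abscisic acid and is not a separate reading. Of 10 phenylpropanoid and flavonoid probes, 5 were lower and 1 higher. Phenylalanine ammonia-lyase (CUST_17518), the entry enzyme, read -0.10, -0.38 and -0.27 in the 12-h buds, against 1.33, 1.30 and 1.41 in the 0-h buds. Cinnamoyl-CoA reductase, an enzyme of lignin monomer synthesis, accounted for 8 probes with no run of 20 bases in common, 4 of them lower and 1 higher. CUST_3004 changed by -1.63 ± 0.16 (SE; adjusted p = 8.69e-06) and CUST_8105, a cinnamoyl-CoA reductase-like protein, by 1.62 ± 0.10 (SE; adjusted p = 1.75e-07). With a slide term, and likewise with a scan-day term, 3 isoprenoid probes were called in place of 5.

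The flowering list holds 32 probes that the study matched to flowering genes of other plants, of which 29 were tested and 8 were called, 1 as higher and 7 as lower, 27.6% against 9.04% of all tested probes. The median over the list was -0.10. Its genes were discussed by the study from these same samples, so the counts are not independent evidence. GI (CUST_31665) read 2.96, 2.58 and 2.92 in the 12-h buds, against -3.63, -3.58 and -3.62 in the 0-h buds, a rise of 86.1-fold and 6.43 ± 0.13 (SE; adjusted p = 1.90e-11) on the log2 scale. COP1 (CUST_36781), a ubiquitin ligase that represses light responses, read -0.93, -1.08 and -0.52 in the 12-h buds, against 0.34, 0.37 and 0.20 in the 0-h buds, a change of -1.15 ± 0.12 (SE; adjusted p = 1.56e-05). GI kept its call in all alternative fits run, and COP1 in all but the fit without scaling, where it was below 2-fold (-0.91). Of the photoreceptors, CRY1 changed by -0.99 ± 0.10 and PHYA by -0.45 ± 0.07, both short of 2-fold, although their adjusted p values were 8.98e-06 and 3.29e-04. AGL20 (SOC1), which integrates flowering signals, was not called at 0.30 ± 0.54, nor was SVP, a floral repressor in *Arabidopsis*, at 0.13 ± 0.14.

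Floral organ-identity genes made up most of the falls on that list, with 5 of 8 tested members lower and none higher, against 5.54% lower among all tested probes. AP3, the B-class gene of petals and stamens, read -2.11, -2.57 and -4.61 in the 12-h buds, against -0.79, -0.88 and -1.17 in the 0-h buds. The E-class genes, partners of the other classes, were lower too: SEP3 read -1.63, -1.46 and -3.45 in the 12-h buds, against -0.65, -0.51 and -0.58 in the 0-h buds. SEP1 changed by -1.48 ± 0.27 and SEP2 by -1.35 ± 0.20. STK, an ovule-identity gene, read -4.09, -4.05 and -6.06 in the 12-h buds, against -2.89, -2.78 and -3.26 in the 0-h buds. For AP3, SEP3 and STK, 12 h replicate 3 was the lowest array by a wide margin, while replicates 1 and 2 lay close together. SEP1, SEP2 and AP1 also had their lowest level on 12 h replicate 3. For each of them it lay further from replicates 1 and 2 than these lay from each other. AG was lowest there by a small margin, whereas AP2 had its highest 12-h level there. This array was the only 12-h array on its slide. Log2 fold changes were -2.15 ± 0.55 (SE; adjusted p = 0.00889) for AP3, -1.60 ± 0.40 (SE; adjusted p = 0.00852) for SEP3 and -1.76 ± 0.47 (SE; adjusted p = 0.0118) for STK. Without 12 h replicate 3 they were -1.40, -0.96 and -1.10, the SEP3 value falling short of 2-fold. In the limma fit of only the 6 arrays, adjusted p was 0.0650 for SEP3 and 0.0587 for STK, and neither was called. With a slide or a scan-day term none of the 5 calls remained. AP3 was then at -0.73 (adjusted p = 0.548) and -1.49 (adjusted p = 0.395). With the slide term SEP1 was at -0.92, SEP2 at -0.91, SEP3 at -0.70 and STK at -0.49, all short of 2-fold. With the scan-day term SEP1 was at -1.28, SEP2 at -1.21, SEP3 at -1.34 and STK at -1.16. Without either term these genes were at -1.48, -1.35, -1.60 and -1.76. The sequences of the AP3 and SEP3 probes are given because both genes belong to a family of similar MADS-box genes:
CUST_10541, AP3: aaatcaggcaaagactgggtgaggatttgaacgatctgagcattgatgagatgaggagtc
CUST_10402, SEP3: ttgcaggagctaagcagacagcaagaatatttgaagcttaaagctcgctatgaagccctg
AP1, an A-class gene, stayed just under 2-fold at -0.99 ± 0.24 (SE; adjusted p = 0.00611), and AG, the C-class gene, and AP2 were not called at -0.48 ± 0.19 and 0.27 ± 0.14. The TS2 probe (CUST_36773), matched to a maize gene that acts in the abortion of carpels in tassel flowers, changed by -1.21 ± 0.31 (SE; adjusted p = 0.00924), by -0.81 without 12 h replicate 3 and by -0.07 with a slide term. None of 13 tested genes of meristem, organ boundary and other development was called, CUC1 at 1.30 ± 0.68 and STM at -0.10 ± 0.20 among them. The summed level of the 7 floral organ markers lay between 2.40 and 5.26 in the 12-h buds and between 8.66 and 9.97 in the 0-h buds, and its part in these results was not tested. These markers are the same probes as reported above, so their sum is not a separate reading.

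The hormone list holds 115 probes that the study matched to *Arabidopsis* hormone genes. Of 113 tested, 5 were higher and 14 lower, 16.8% in all against 9.04% of all tested probes, with a median log2 fold change of 0.05 against 0.02. Genes of this list were discussed by the study from these same samples, so the counts are not independent evidence. Abscisic acid, a hormone of drought response and dormancy, had 6 of 23 tested probes lower and none higher, against 5.54% lower among all tested probes. GUN5 (CUST_15540), the magnesium chelatase subunit also named CHLH or ABAR and proposed as an abscisic acid receptor, read -2.89, -3.27 and -3.05 in the 12-h buds, against 1.32, 1.67 and 1.08 in the 0-h buds, a 21.5-fold fall. Its log2 fold change was -4.42 ± 0.18 (SE; adjusted p = 4.84e-09), and the enzyme also catalyses a step of chlorophyll synthesis. NCED3 (CUST_20053), the rate-limiting cleavage step of abscisic acid synthesis, read -7.29, -6.09 and -7.42 in the 12-h buds, against -4.47, -4.98 and -5.20 in the 0-h buds, and it is listed under ethylene as well. CLA1 (CUST_4773), a 1-deoxyxylulose-5-phosphate synthase, read -0.80, -0.90 and -0.76 in the 12-h buds, against 1.20, 1.50 and 0.97 in the 0-h buds. The zeaxanthin epoxidase gene ABA1 (CUST_11268) changed by -1.23 ± 0.18, the photosystem II gene PSBR by -1.11 ± 0.17 and the inositol phosphatase gene IP5PII by -1.03 ± 0.21. PSBR was at -0.99 and IP5PII at -0.72 without 12 h replicate 2, and IP5PII at -0.95 without 0 h replicate 2, each short of 2-fold. With quantile normalization PSBR was at -0.986 and IP5PII at -0.985, and with the deposited log2 values at -0.976 and -0.984, also short of 2-fold. The NCED3 value was -1.05 (adjusted p = 0.225) with a slide term and -1.29 (adjusted p = 0.146) with a scan-day term, while GUN5 and CLA1 kept their calls in both.

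Jasmonic acid genes moved both ways, with 25.0% of the tested probes called against 9.04% of all tested probes. JMT (CUST_14900), which methylates jasmonic acid, read -4.75, -4.76 and -5.82 in the 12-h buds, against -0.55, -0.63 and -0.90 in the 0-h buds, a change of -4.41 ± 0.29 (SE; adjusted p = 2.48e-07). OPR3 (CUST_5083), a reductase of jasmonic acid synthesis, read -0.88, -0.40 and -1.07 in the 12-h buds, against -2.01, -2.76 and -2.08 in the 0-h buds, and AIM1 (CUST_31426), an enzyme of beta-oxidation, changed by 1.16 ± 0.29. The other 9 tested jasmonic acid probes were not called, among them the synthesis genes AOS at 0.71 ± 0.38 and LOX2 at -0.29 ± 0.61. In the ethylene class, MBF1C (CUST_1121), a heat- and stress-responsive coactivator, read 0.47, 0.51 and 1.09 in the 12-h buds, against -2.98, -3.31 and -3.22 in the 0-h buds, a 14.5-fold rise, and MYB51, a regulator of indole glucosinolates, changed by -1.23 ± 0.26. GA2OX6 (CUST_38266), a gibberellin-inactivating oxidase, rose by 1.55 ± 0.34 on the log2 scale. It was the 1 called probe of 8 tested gibberellin probes, 12.5% against 9.04% of all tested probes. Without 12 h replicate 3, its highest array, the value was 1.01. In the auxin class, SUR1 (CUST_16559), a C-S lyase whose loss raises auxin in *Arabidopsis*, read -5.77, -5.31 and -4.59 in the 12-h buds, against -2.96, -3.11 and -3.16 in the 0-h buds. The chalcone synthase gene CHS, an enzyme of flavonoid synthesis, changed by -1.56 ± 0.20 and the auxin-inducible repressor IAA19 by 1.03 ± 0.18. The remaining 24 of 27 tested auxin probes were not called, so 11.1% of the class was called, near the 9.04% of all tested probes. Of 12 brassinosteroid probes only DOGT1 (UGT73C5; CUST_14505), which inactivates brassinosteroids by adding glucose, was called, at -2.34 ± 0.44 (SE; adjusted p = 0.00148). The share called was 8.33% in this class. None of the 6 salicylic acid probes was called. With a slide term and with a scan-day term, DOGT1, MYB51, ABA1 and IAA19 were not called. SUR1, IP5PII and GA2OX6 were called with the slide term only, and AIM1 with the scan-day term only. For IAA19, MYB51 and DOGT1 the log2 fold changes with the slide term were 1.01, -1.18 and -1.92, not far from those without it. ABA1 was at -0.78 with that term, short of 2-fold. The median standard error over all probes was 0.23 in place of 0.13. Why these calls were lost was not tested. With normexp GA2OX6 (0.72), AIM1 (0.42) and IAA19 (0.86) were not called. Without 12 h replicate 3, MYB51 was at -0.94, AIM1 at 0.94 and IAA19 at 0.98, and IAA19 was at 0.97 without 12 h replicate 1 and at 0.86 without 0 h replicate 2, none of which reached 2-fold. Probes of 2 hormone genes that fell are shown for reference, since each stands for a family of related enzymes:
CUST_20053, NCED3: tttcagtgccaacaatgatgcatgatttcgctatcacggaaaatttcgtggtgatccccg
CUST_16559, SUR1: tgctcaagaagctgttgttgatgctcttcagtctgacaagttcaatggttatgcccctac

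**Figure D4:**
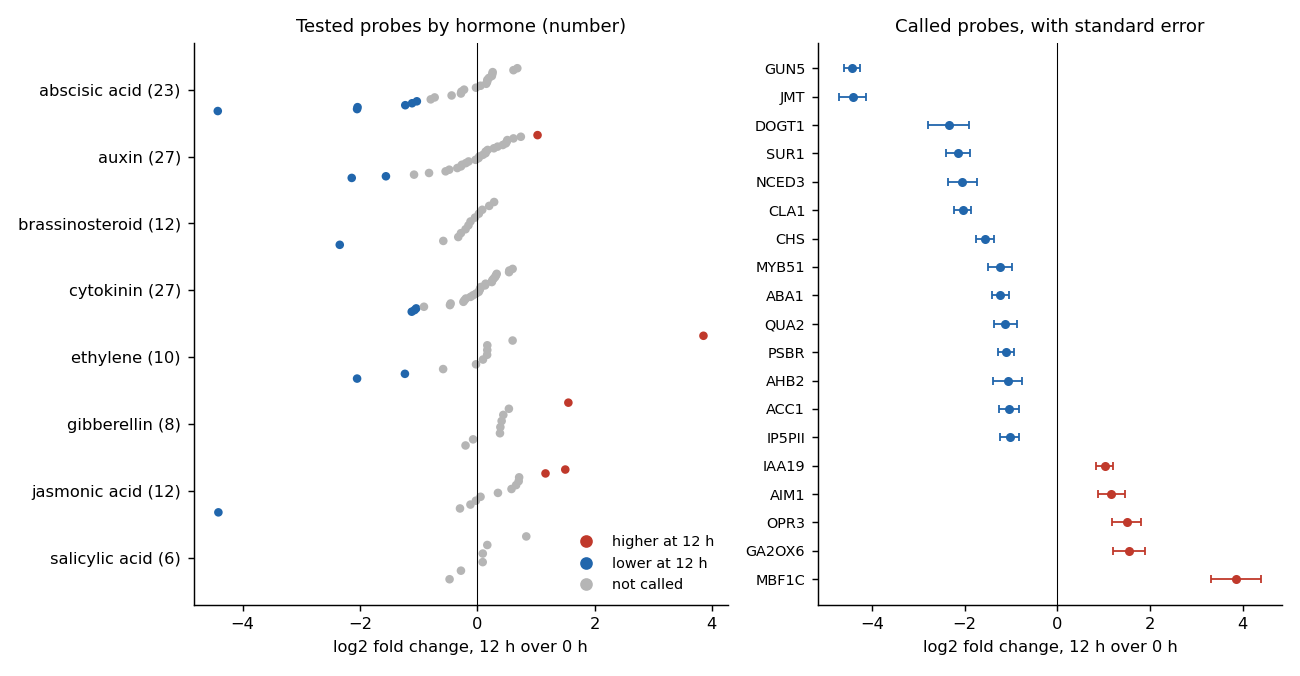
Left, log2 fold change (12 h over 0 h) of the tested hormone-list probes by hormone, with the number of probes; red is higher, blue lower and grey not called. Right, the 19 called probes with their standard errors: 14 lie below 0, led by GUN5 and JMT, and 5 above, led by MBF1C.

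The cytokinin class, the hormone that was sprayed, had 3 of 27 tested probes lower and none higher, 11.1% against a background of 9.04%, with a median of 0.04. The called members are labelled as cytokinin-responsive rather than as parts of the signalling chain: QUA2, a pectin methyltransferase-like gene (-1.12 ± 0.24), AHB2, a non-symbiotic haemoglobin (-1.07 ± 0.31), and ACC1, an acetyl-CoA carboxylase (-1.04 ± 0.22). Each of the 3 lay close to 2-fold and fell short of the call without 12 h replicate 3, without 0 h replicate 1 and with either term. Without 12 h replicate 3 the values were -0.87 for QUA2, -0.67 for AHB2 and -0.94 for ACC1, and without 0 h replicate 1 -0.93, -1.04 and -0.88 in the same order. AHB2, at -1.03 without 0 h replicate 2, had an adjusted p of 0.0551. Along the chain, the receptor AHK3 changed by -0.22 ± 0.10, the phosphotransfer protein AHP2 by -0.12 ± 0.16, and the response regulators ARR1, ARR3 and ARR8 by 0.33 ± 0.11, 0.54 ± 0.34 and 0.32 ± 0.21. The cytokinin synthesis genes IPT5 and IPT9 changed by -0.47 ± 0.26 and 0.28 ± 0.14. None of these 7 values was called, which does not show that the genes did not change.

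By fitted change, the rises among probes described by a protein name were led by 2 kinds of probe, the latter well above background on no 0-h array. The auxin-repressed protein (CUST_32452), a member of a family found in dormant buds, read 0.98, -1.04 and 0.67 in the 12-h buds, against -5.47, -4.06 and -4.00 in the 0-h buds, a change of 4.72 ± 0.47 (SE; adjusted p = 8.20e-06). Oleosin 2, a protein of the oil bodies of seeds, had 9 probes on the described list, and all 9 were called higher, with fitted changes of 1.97 to 4.68 on the log2 scale, although these signs do not hold under normexp background correction, where 4 of the 9 values were below 0 and none was called. With a slide term 4 of the 14 oil body and seed storage probes were called, and with a scan-day term 5. CUST_26853 read -3.29, -6.12 and -4.87 in the 12-h buds, against -8.99, -9.50 and -9.85 in the 0-h buds. No 0-h array was well above background for any of the 9 probes, so the rise of CUST_26853 was at least 7.61-fold, a bound not met with normexp (0.43 on the log2 scale), and the bounds for the others ran from 2.78-fold to 8.27-fold. The 9 probes fell into 3 sets by shared runs of at least 20 bases and are not independent readings. On each of them 12 h replicate 1 was highest and replicate 2 lowest. Other seed genes were not called: Oleosin1 -0.21 ± 0.16, legumin B 0.21 ± 0.27 and dehydrin Xero -0.34 ± 0.16. The median of the 14 oil body and seed storage probes was 3.30, or 1.77 with bounded probes at their bound. The 13 seed and embryo markers had a summed level of 0.196 to 0.787 at 12 h and of 0.147 to 0.178 at 0 h, with 9 markers above background on no 0-h array, and their part was not tested. They were picked by the words oleosin, legumin or late embryogenesis abundant. They thus include the oleosin probes above and are not a separate reading.

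The other described rises were spread over enzymes of several pathways. Electron transfer flavoprotein-ubiquinone oxidoreductase (CUST_24166), which feeds electrons of amino acid breakdown to the respiratory chain, averaged 2.30 ± 0.43 in the 12-h buds and -0.92 ± 0.08 in the 0-h buds (SD, n = 3 each), a change of 3.22 ± 0.24. Sucrose phosphate phosphatase (CUST_9775), the last step of sucrose synthesis, changed by 1.90 ± 0.12, a short chain alcohol dehydrogenase (CUST_27494) by 2.30 ± 0.17 and a phosphoprotein phosphatase (CUST_15670) by 2.36 ± 0.18. Dimethylaniline monooxygenase (CUST_3904, 4.01 ± 0.45) and an S-adenosylmethionine-dependent methyltransferase (CUST_19932, 3.86 ± 0.92) were each well above background on 1 of the 0-h arrays. The methyltransferase varied widely among the 12-h arrays, between -5.49 and -0.57, and with only the 6 arrays in the fit its adjusted p was 0.0523. A glutathione S-transferase (CUST_34886) changed by 2.87 ± 0.60, gulonolactone oxidase (CUST_16244), an enzyme of ascorbate synthesis in animals, by 2.69 ± 0.54, and 2 probes for regulators, a zinc finger protein (CUST_9851) and an AP2/ERF factor (CUST_3282), by 2.48 ± 0.41 and 1.96 ± 0.37. The calls of these 2 regulators were lost with a slide or a scan-day term, and those of the glutathione S-transferase, gulonolactone oxidase and the methyltransferase with a scan-day term. With normexp background correction dimethylaniline monooxygenase was at 0.96, the methyltransferase at 1.55, the glutathione S-transferase at 1.67, gulonolactone oxidase at 0.55, the phosphoprotein phosphatase at 0.93, the AP2/ERF factor at 0.80 and sucrose phosphate phosphatase at 1.10, and none of these 7 was called. The zinc finger protein of the qRT-PCR list (CUST_32158) was higher by at least 4.24-fold, a bound that does not hold with normexp, where its log2 fold change was 0.09 (adjusted p = 0.94).

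In the remaining groups between none and 25.0% of the probes were called, against 9.04% of all tested probes. None of 18 ribosome and translation probes and none of 14 RNA helicase and splicing probes was called, with medians of 0.10 and 0.11. Of 22 chaperone and heat shock probes, 1 was higher (CUST_23550, 1.07 ± 0.21) and 2 were lower, HSC70-1 at -1.05 ± 0.19 and a copper chaperone of the chloroplast at -1.61 ± 0.28. Histone H4 (CUST_24207) was the 1 called probe of 13 for histones, DNA and the cell cycle, at 1.31 ± 0.23, and a ubiquitin-activating enzyme E1c (CUST_12743) the 1 of 19 for protein turnover, higher by at least 2.11-fold. A polygalacturonase precursor (CUST_17868), which loosens pectin, was the 1 of 13 cell wall probes, at -1.63 ± 0.30, and malate dehydrogenase (CUST_11174) the 1 of 8 for mitochondrial respiration, at -1.59 ± 0.11. Of 20 probes described as transcription factors, 3 were lower and 2 higher, including a NAC domain protein (CUST_34513) at 1.23 ± 0.23.

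Buds at 24 h were collected at the same clock time as those at 0 h, and were compared with the 12-h buds directly in the same fit. The 6 arrays of this comparison were scanned on the same day. The 24-h arrays lay on the slide of 12 h replicate 3, and 12 h replicates 1 and 2 on another. Slide is thus partly confounded with time point here as well. Clock time and hours since BA also differ together between 12 h and 24 h and cannot be told apart. The difference of means does not use the 0-h arrays, whereas its standard errors share the spread estimated over all 15 arrays. Between these times 5.95% of all tested probes were called: 1.88% were higher and 4.06% lower at 12 h than at 24 h. GI was higher at 12 h by 5.85 ± 0.13 (adjusted p = 4.47e-11), and the auxin-repressed protein by 5.26 ± 0.47 (adjusted p = 4.95e-06). The 12-h minus 24-h difference was -5.12 ± 0.25 (adjusted p = 2.95e-08) for the silicon transporter, -3.76 ± 0.18 (adjusted p = 2.86e-08) for GUN5, -3.50 ± 0.29 (adjusted p = 3.04e-06) for JMT and -3.65 ± 0.23 (adjusted p = 2.79e-07) for the PIP probe CUST_19976. Of the 9 PIP probes, 6 were lower at 12 h than at 24 h, with a median difference of -2.32 over the 9. Of the 7 TIP probes none was called lower and CUST_7640 was higher, with a median difference of -0.94, just short of 2-fold. Whether PIP and TIP probes differed in this was not tested. Of the 8 tested floral organ-identity genes, 4 were lower at 12 h than at 24 h, with a difference of -2.04 ± 0.55 (adjusted p = 0.0163) for AP3. Only 3 of the 25 photosynthesis probes were, with a median difference of -0.47. None of the oleosin 2 probes was called between these times, and CUST_26853 differed by -1.03 ± 0.54 (adjusted p = 0.185). Set against the same 0-h arrays, the 4 later times gave GI log2 fold changes of 3.75, 6.43, 0.57 and 1.26 at 3, 12, 24 and 48 h. The silicon transporter gave -0.28, -6.08, -0.96 and -1.07. For MBF1C the values were 3.50, 3.86, 5.23 and 2.28. The median over the 25 photosynthesis probes was 0.18, -1.35, -0.88 and -0.36 at these times, and over the 16 water channel probes 0.02, -1.26, -0.27 and -0.34.

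**Figure D5:**
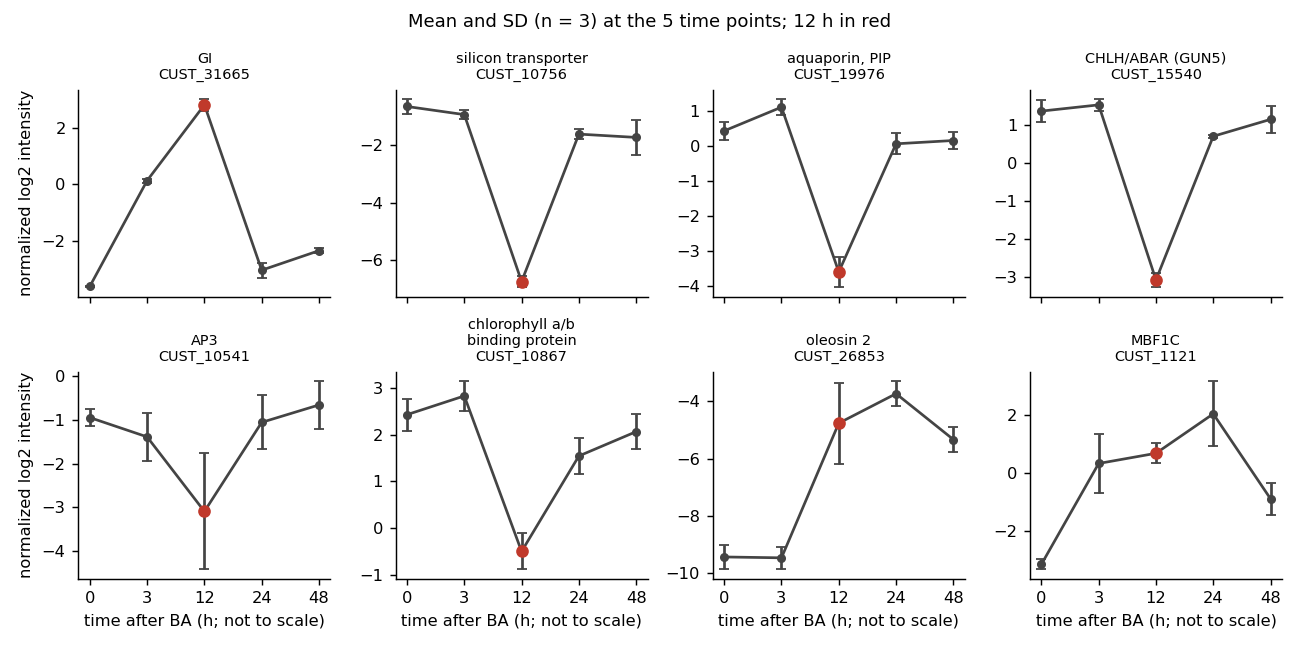
Mean normalized log2 intensity (points) and SD (whiskers, n = 3) of 8 named probes by hours after BA (horizontal axis), with 12 h in red and a vertical scale of its own in each panel. GI has its highest mean at 12 h, the silicon transporter, the PIP aquaporin, GUN5, the chlorophyll a/b binding protein and AP3 have their lowest mean there, and oleosin 2 and MBF1C have higher means at 24 h than at 12 h. No 0-h array was well above background for oleosin 2.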

How the data were processed

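RNA of 15 bud samples (0, 3, 12, 24 and 48 h, 3 biological replicates each) was measured on Agilent arrays in 1 colour, and the 6 arrays of 12 h and 0 h were compared. The authors deposited the scanner output of each array, made with Feature Extraction 10.7.3.1, whose processed signal is an intensity with background subtracted. They also deposited a table of log2 values. Of these log2 values, 99.98% lay within 0.1 of quantile-normalized log2 processed signals, and the table served as an alternative. Sheets and columns of the authors' own comparisons, which hold fold changes and p-values, were not used.

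Control spots and outlier spots were left out, 236 probes printed 10 times were averaged, and log2 intensities were shifted to the 75th percentile of each array. A probe was tested where all arrays of at least 1 time point showed it well above background, which left 34470 of 41651 probes. limma 3.58.1 in R 4.3.3 fitted all 15 arrays with time point as the only term (10 residual degrees of freedom), and p-values were adjusted by Benjamini-Hochberg over all tested probes. A call needed an adjusted p of 0.05 or less and at least a 2-fold change, the thresholds of the study's methods, which name no test. The same fit gave 12 h against 24 h, a contrast added to the design. Where no array of a time point showed a probe well above background, its change is given by a bound: the mean of the brighter group against, on each array of the dimmer group, the higher of the lowest signal well above background and the probe's own. The number of arrays limits the precision, with a median standard error of 0.13 on the log2 scale. The fit was tested on simulated data.

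Gene names and probe sequences came from the study's lists. These hold sequences for 2901 probes and descriptions for a part of these, and other probes are given by their ID. The files do not tie probes to a genome build, so no coordinates are given. Named probes were all called members of the hormone and flowering lists, the 12 largest rises and 12 largest falls with an informative description (1 probe per description, arrays of the time points not overlapping), the 3 largest of either direction whatever their annotation, the called probes of the qRT-PCR list, and examples of each description group. Members and lists were chosen with earlier results of these data known. Alternatives covered scaling, normexp background correction (offset 50, on the median signal), the filter on dim probes, the arrays in the fit, slide, scan day, a replicate block, outlier spots and leaving out each array. Numbers were computed with Python 3.11.15 and figures drawn with matplotlib 3.10.9.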

Additional observations from a re-analysis of the deposited data

How the results depend on the processing

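Over all tested probes, leaving out 1 array gave 2663 to 3467 calls, 1013 to 1347 of them higher and 1650 to 2120 lower. The count of higher probes was 2004 without scaling and 478 with normexp background correction. The hormone list had 13 to 20 calls and the flowering list 7 to 10 without 1 array. With a fixed term for scan day the hormone list had 11 calls, and with a term for slide or for scan day the flowering list had 3. The 14 oil body and seed storage probes had 9 calls without any 1 array, 0 with normexp and 0 where only probes well above background on all 15 arrays were tested, 4 with a slide term and 5 with a scan-day term. Log2 fold changes of oleosin 2 turned sign with normexp, at -0.30 (CUST_26944), -0.46 (CUST_21323), -0.00159 (CUST_20525) and -0.35 (CUST_22577). Isoprenoid probes had 3 calls with either term, and described transcription factors 3 with normexp. The cause of these moves was not tested.

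Of the 63 named probes, 44 kept their call with a slide term and 40 with a scan-day term, fits in which the median standard error was 0.23 and in which 1683 and 1789 of the 3115 calls were kept. Under every other alternative at least 47 of the named probes that could be tested kept it. Of all 3115 calls, 2098 were kept with normexp and 341 turned sign, while 66 turned sign with a slide term and 36 with a scan-day term. Deviations of same-numbered 12-h and 0-h arrays from their group means had correlations of 0.22, -0.22 and 0.07. No steady shared deviation was seen, but so few arrays cannot tell whether the samples were paired. With the replicate block 1211 probes were higher and 1899 lower, 3088 of the calls being kept. Dim probes are the least certain, since their level depends on the background correction.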
